A study of Bos taurus with 12 samples.

Results

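The mitochondrial ribosome makes the few proteins that are encoded on mitochondrial DNA, all of them parts of the respiratory chain and ATP synthase. Its own proteins are encoded in the nucleus, made in the cytosol and imported, and they assemble around rRNA that is transcribed from mitochondrial DNA. The small subunit holds the mRNA and reads its codons, and the large subunit joins the amino acids and lets the new chain out through a tunnel that opens at the inner membrane. Liver is rich in mitochondria, and hepatocytes depend on them for urea synthesis, gluconeogenesis and the oxidation of fatty acids.

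The genes described here were all those whose bovine RefSeq symbol, matched by Entrez gene ID, begins with MRPL (large subunit) or MRPS (small subunit). There were 78 of them, 49 MRPL and 29 MRPS, among the 30336 gene IDs of the count files. They were taken by symbol alone, without regard to their expression. All 78 were detected, and all 78 passed the filter on low counts.

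Liver was taken by puncture biopsy at 4 d of age from heifer calves of Holstein cows. The dams of CON calves were fed a basal diet without added Met. Those of MET calves received the same diet with rumen-protected Met, coated in ethyl cellulose, over the final 28 d before calving, and all calves were managed alike after birth. Poly(A) RNA of 6 CON and 6 MET calves was sequenced from one end, strand-specifically, on a single lane. The files gave raw counts of reads per gene, with 8277789 to 10397604 counted reads per library, and 3 reads equalled 0.289 to 0.362 CPM (counts scaled to a common library total).

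Among the 66 pairs of libraries, 2 differed by little more than counting noise. The chi-square statistic of their counts, averaged over genes, was 1.33 between the libraries labelled CON replicates 1 and 4 and 1.24 between those labelled MET replicates 1 and 3, against 25.1 to 132.9 in the other 64 pairs. The reads of each such pair were therefore summed and counted as 1 sample, which left 5 samples per diet, and the fit over all 12 libraries is given beside every count of genes called. The first index sequence was the same in all CON libraries and different in all MET libraries, and effects of index and of diet cannot be told apart. Hepatocyte markers led the libraries, at a summed 111181 to 183529 CPM over 8 genes, and 3 of 4 skeletal muscle markers were at 0 in all samples. In what follows, values of single samples are in the order pair 1 and 4, 2, 3, 5 and 6 for CON and pair 1 and 3, 2, 4, 5 and 6 for MET.

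Both subunits had higher summed counts in MET than in CON on average, with overlap between the diets. The 49 large subunit genes summed to 1501, 1790, 1467, 1704 and 1635 CPM in the CON samples and to 1728, 2028, 1983, 1641 and 2261 CPM in the MET samples. The CON mean was 1619 ± 136 CPM and the MET mean 1928 ± 248 CPM (SD, n = 5 each), a ratio of 1.19. MET replicates 2, 4 and 6 lay above every CON sample, while the pair of MET replicates 1 and 3 and MET replicate 5 lay within the CON range.

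The 29 small subunit genes summed to 742, 857, 758, 912 and 858 CPM in CON and to 879, 1084, 1042, 833 and 1186 CPM in MET. The CON mean was 825 ± 72.6 CPM and the MET mean 1005 ± 147 CPM (SD, n = 5 each), a ratio of 1.22. The same 3 MET samples lay above the CON range, and the same 2 lay within it. Reads of both subunits together made up 0.223 to 0.265% of the counted reads in CON and 0.247 to 0.345% in MET.

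The proportion of the subunits was similar in all samples. The summed CPM of the small subunit divided by that of the large subunit averaged 0.510 ± 0.023 for CON and 0.520 ± 0.012 for MET (SD, n = 5 each). The lowest ratio was 0.479, in CON replicate 2, and the highest was 0.535, in CON replicate 5, so that all MET samples lay within the CON range.

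**Figure D1:**
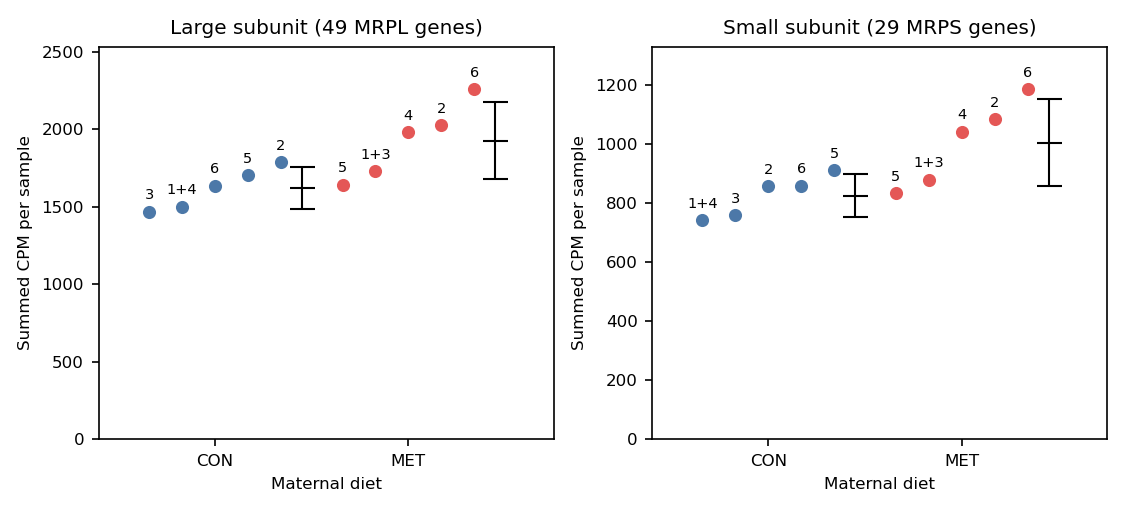
Summed CPM of the 49 large subunit genes (left) and the 29 small subunit genes (right) per sample, by maternal diet. Each point is a sample with its replicate number, the bar beside each group is the mean ± SD (n = 5), and in both panels MET replicates 2, 4 and 6 lie above every CON sample while MET replicate 5 and the pair 1 and 3 do not.

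In bulk tissue, a smaller share of cells of a type and less RNA per cell cannot be told apart, so the values describe the biopsy as a whole. Marker lists of cell types also differed between the samples. The 8 hepatocyte markers, among them ALB and APOB, summed to 136226 to 183529 CPM in CON and 111181 to 144535 CPM in MET, with 7 of 8 lower in MET. The 9 markers of Kupffer cells and macrophages summed to 1376 to 1828 CPM in CON and 1630 to 2162 CPM in MET, with 9 of 9 higher. Markers of cells in division summed to 17.3 to 70.6 CPM in CON and 8.97 to 23.3 CPM in MET, with 4 of 4 lower. The 10 erythroid markers summed to 7.78 to 965 CPM in CON and 60.8 to 461 CPM in MET, with 2 of 2 tested lower. For the endothelial list the sums were 240 to 402 and 218 to 343 CPM, with 4 of 6 lower. For stellate cells and fibroblasts they were 597 to 934 and 455 to 808 CPM, with 6 of 6 lower. Markers of cholangiocytes, T cells and B cells summed to no more than 68.0 CPM in any sample. Of those tested, 3 of 3 were lower for cholangiocytes and 3 of 3 higher for T cells. The part of these markers in the results was not tested.

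Gene by gene, the shift of the large subunit was small and shared by most of its members. Of 49 genes, 47 had a log2 fold change (MET minus CON) above 0, and 49.5% of all 13242 genes tested did. The median was 0.28 over the large subunit and -0.003 over all genes tested. The 2 exceptions were MRPL3 and MRPL33, at log2 fold changes of -0.06 and -0.02.

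Among the 29 small subunit genes, 29 had a log2 fold change above 0, from 0.03 in MRPS36 to 0.57 in MRPS18B, with a median of 0.28. The interquartile range was 0.17 to 0.35 in the large subunit and 0.13 to 0.40 in the small subunit. To 2 decimals the subunits had the same median, and each held genes near 0 as well as genes near 0.6.

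No member reached an FDR of 0.10 over the 10 samples by the quasi-likelihood test of edgeR (Benjamini-Hochberg adjusted), and neither did any of the 13242 genes (0.0%), the lowest adjusted p being 0.156, that of MRPL42 among others. At an unadjusted p of at most 0.05, 20 of 49 large subunit genes and 13 of 29 small subunit genes were higher in MET, and none was lower, with 7.83% of all genes tested higher and 8.52% lower. The same test over the 12 libraries called 4 of 49 and 3 of 29, all higher in MET, where 2.09% of 13212 genes were called higher and 2.32% lower. Without CON replicate 1 or without CON replicate 4, the libraries of 1 of the near-identical pairs, 0 members were called over the remaining libraries. DESeq2 over the 10 samples also called 4 of 49 and 3 of 29 at an adjusted p of at most 0.10, with 2.31% of all genes called higher. Samples of the diets did not overlap for 4 of 49 and 4 of 29, with all MET above all CON, against 1.91% of all genes tested, with all MET below all CON for 0 members and 1.8% of all genes. With counts scaled by library size only, without TMM normalization, 2 of 49 and 1 of 29 did not overlap (MRPL14, MRPL42 and MRPS26), so that only MRPL42 was without overlap under both scalings. The shares of all genes without overlap are those of the TMM values, and none is given for other scalings. With TMM normalization, MRPS18B overlapped over the 12 libraries, and with upper quartile normalization MRPS34 overlapped over the 10 samples.

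**Figure D2:**
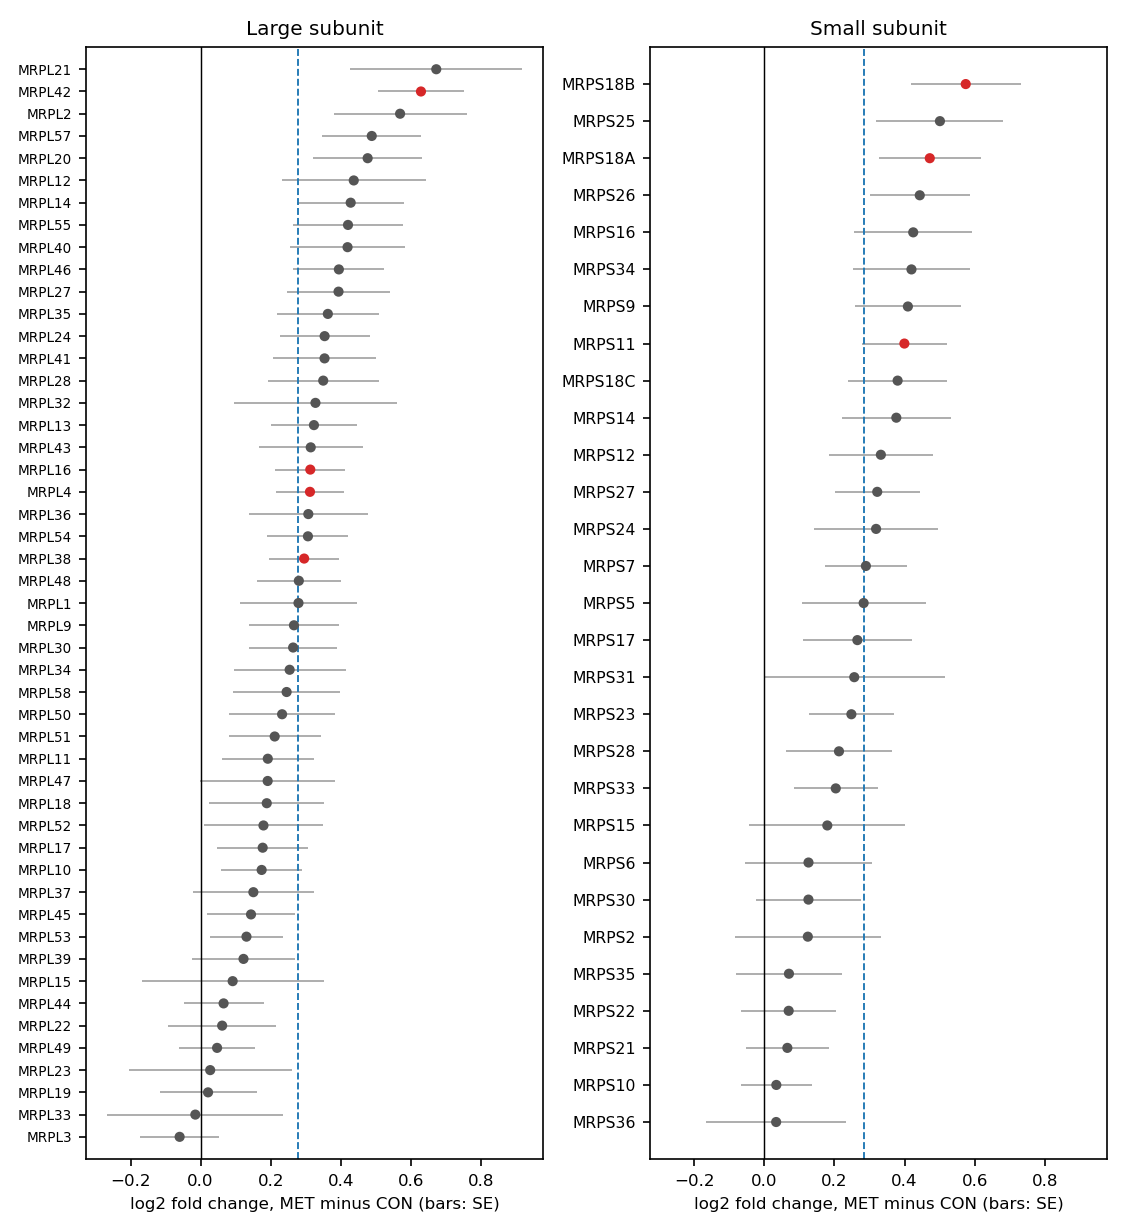
Log2 fold change (MET minus CON, x axis) of each of the 49 large (left) and 29 small subunit genes (right) over the 10 samples, with bars of 1 SE. The solid line is 0, the dashed line is the median of the subunit (0.28 in both) and red points are the 4 large and 3 small subunit genes with an FDR of at most 0.10 over the 12 libraries; 76 of the 78 points lie to the right of 0.

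The sum of a subunit hides which samples carried the shift. Of the 78 genes, 76 had their highest CPM in a MET sample and 2 in a CON sample. MET replicate 6 held the highest value of 39 genes, MET replicate 2 of 18 and MET replicate 4 of 17. The lowest CPM fell in a CON sample for 63 genes, in the pair of CON replicates 1 and 4 for 25 of them and in CON replicate 3 for another 25. MET replicate 5 held the lowest value of 9 genes and the highest of none. All 5 MET samples lay above every CON sample in 8 of 78 genes, against 1.91% of all genes tested. A further 11 members had 4 such samples, 22 had 3, 18 had 2, 17 had 1 and 2 had none.

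MET replicate 6 was also high in the ribosomal proteins of the cytosol. The median deviation of those genes from their mean over the samples was 0.51 on the log2 scale in MET replicate 6 and -0.25 to 0.07 in the other 9 samples. The corresponding deviation of the large subunit genes was 0.35 in MET replicate 6, 0.20 in MET replicate 2 and 0.18 in MET replicate 4. With the trend of each sample on exonic length removed it was 0.16, 0.14 and 0.12 in these samples. All other genes of up to 1800 bases were also highest in MET replicate 6, at a median deviation of 0.19. MET replicates 2 and 4 stood high in the mitochondrial ribosomal proteins while their cytosolic counterparts were at 0.02 and 0.06.

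MRPL42 had the lowest p of the large subunit. It encodes mL42, a protein with no bacterial counterpart, and lies on the plus strand of chromosome 5 (23426116 to 23456897, UMD 3.1.1). Its level was 18.4, 21.7, 20.6, 21.1 and 23.2 CPM in CON and 25.4, 33.0, 38.3, 34.7 and 31.2 CPM in MET. All MET samples lay above all CON samples, and MET replicate 5, which held the highest value of no member, was the second highest here. MRPL42 had a log2 fold change of 0.63 (SE 0.12), an adjusted p of 0.156 over the 10 samples and 0.0452 over the 12 libraries (quasi-likelihood test of edgeR), and of 0.00443 in DESeq2 over the 10 samples. Over the 12 libraries with 1 library left out in turn, it was called in 10 of 12 fits, but not without CON replicate 1 or without CON replicate 4. Each of these fits keeps at least 1 near-identical pair as separate libraries. The tally, like those given below for other genes, therefore does not show how far a call holds between calves.

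MRPL4, MRPL16 and MRPL38 showed smaller differences with little spread. MRPL4 encodes uL4m, which lines the tunnel for the new chain, and lies on chromosome 7 (15998193 to 16007540). Its level was 43.5, 44.8, 39.6, 44.7 and 47.4 CPM in CON and 53.6, 59.5, 56.7, 49.3 and 54.1 CPM in MET. The diets did not overlap, and the SD of log2 CPM within diets, 0.097, was the lowest of the large subunit. This was a log2 fold change of 0.31 (SE 0.10; edgeR adjusted p = 0.185 over the 10 samples and 0.0785 over the 12 libraries).

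MRPL16 encodes uL16m, a conserved protein beside the site where amino acids are joined, and lies on chromosome 15 (84347021 to 84351738). It had 40.8, 42.9, 36.7, 40.4 and 40.8 CPM in CON and 48.5, 47.3, 52.7, 45.05 and 57.0 CPM in MET, again without overlap. Its log2 fold change was 0.31 (SE 0.10; edgeR adjusted p = 0.192 and, over the 12 libraries, 0.0849).

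MRPL38 encodes mL38, a protein of the central protuberance at the top of the large subunit, and lies on chromosome 19 (56353577 to 56358120). It had 28.3, 29.1, 24.9, 30.4 and 31.4 CPM in CON and 35.9, 36.4, 37.6, 35.2 and 31.7 CPM in MET. MET replicate 6 was here the lowest of the MET samples and lay only just above CON replicate 6. The log2 fold change was 0.30 (SE 0.10; edgeR adjusted p = 0.201 and, over the 12 libraries, 0.0836). MRPL4, MRPL16 and MRPL38 were called in 3, 2 and 4 of the 12 fits that left out 1 library.

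MRPL57, which encodes mL63, had the second lowest p of the large subunit over the 10 samples but was not called by edgeR over the 12 libraries. It lies on chromosome 12 (35840399 to 35841487). Its level was 34.6, 33.9, 26.8, 36.0 and 28.5 CPM in CON and 34.1, 44.7, 44.7, 44.9 and 56.3 CPM in MET, so that only the pair of MET replicates 1 and 3 overlapped with CON. Its log2 fold change was 0.49 (SE 0.14; edgeR adjusted p = 0.180 and, over the 12 libraries, 0.119). DESeq2 called it, at an adjusted p of 0.0617 over the 10 samples and 0.0680 over the 12 libraries.

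The largest fold change of all members was that of MRPL21, which encodes bL21m and was singled out after its values were seen. It had 9.68, 14.1, 9.14, 16.6 and 13.1 CPM in CON and 15.5, 27.7, 20.1, 11.2 and 24.9 CPM in MET. MET replicate 5 lay in the lower part of the CON range, and the SE was larger than that of MRPL42, so that a log2 fold change of 0.67 (SE 0.25) had an edgeR adjusted p of 0.225 over the 10 samples and 0.127 over the 12 libraries.

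In the small subunit, MRPS18B had the largest difference. It encodes mS40 and lies on chromosome 23 (28169926 to 28176489). Its level was 47.8, 46.1, 56.9, 69.1 and 65.5 CPM in CON and 72.7, 78.7, 107, 72.9 and 94.2 CPM in MET, without overlap. The log2 fold change was 0.57 (SE 0.16; edgeR adjusted p = 0.175 over the 10 samples and 0.0692 over the 12 libraries), and DESeq2 over the 10 samples gave an adjusted p of 0.0363. It was called in 8 of the 12 fits that left out 1 library.

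MRPS18B has 2 paralogs, and mammals place the 3 proteins at different sites of the ribosome: MRPS18C (bS18m) at the site of the bacterial protein, MRPS18B elsewhere in the small subunit, and MRPS18A (mL66) in the large subunit despite its symbol. MRPS18A, on chromosome 23 (17151839 to 17168528), had 20.4, 18.1, 15.9, 22.9 and 22.9 CPM in CON and 24.8, 31.0, 34.7, 25.3 and 23.4 CPM in MET. MRPS18C, on chromosome 6 (100006745 to 100011717), was the weakest of the 3, with 6.99, 6.15, 6.97, 7.08 and 6.74 CPM in CON and 8.19, 10.5, 7.82, 7.60 and 10.1 CPM in MET. In each of the 3 paralogs all MET samples lay above all CON samples after TMM normalization. With library size only, all 3 overlapped, and with the trend of each sample on exonic length removed, MRPS18A and MRPS18C overlapped. The log2 fold change of MRPS18A was 0.47 (SE 0.15; edgeR adjusted p = 0.185 and, over the 12 libraries, 0.0889), and it was called in 1 of the 12 fits that left out 1 library. That of MRPS18C was 0.38 (SE 0.14; edgeR adjusted p = 0.230 and, over the 12 libraries, 0.134), and 0.14 with the length trend removed.

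MRPS34, on chromosome 25 (1349891 to 1351145), was the other small subunit gene without overlap. It had 51.3, 60.02, 56.1, 61.7 and 63.1 CPM in CON and 64.3, 85.7, 63.9, 64.2 and 113 CPM in MET. Of the MET samples, 3 lay just above CON replicate 6, and MET replicates 2 and 6 lay well above. Its log2 fold change was 0.42 (SE 0.17; edgeR adjusted p = 0.254 and, over the 12 libraries, 0.149). It was 0.25 without MET replicate 6 and 0.26 with the length trend removed.

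MRPS11, which encodes uS11m, a conserved protein of the platform of the small subunit, lies on chromosome 21 (19867700 to 19898711). It had 14.4, 19.3, 16.1, 19.7 and 15.6 CPM in CON and 21.4, 23.8, 22.5, 19.6 and 24.8 CPM in MET, where MET replicate 5 lay just below CON replicate 5. This gave a log2 fold change of 0.40 (SE 0.12; edgeR adjusted p = 0.183 and, over the 12 libraries, 0.0849). Its start lies 110 bases from that of MRPL46, which is read in the opposite direction (19858317 to 19867590) and encodes a protein of the large subunit. MRPL46 had 19.2, 17.7, 16.7, 21.5 and 18.6 CPM in CON and 22.0, 25.5, 24.3, 20.3 and 31.2 CPM in MET, a log2 fold change of 0.39 (SE 0.13; edgeR adjusted p = 0.197 and, over the 12 libraries, 0.107). With the trend on exonic length removed, MRPS11 and MRPL46 were both at 0.24. Both genes of the pair had their lowest MET value in replicate 5 and their highest in replicate 6.

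**Figure D3:**
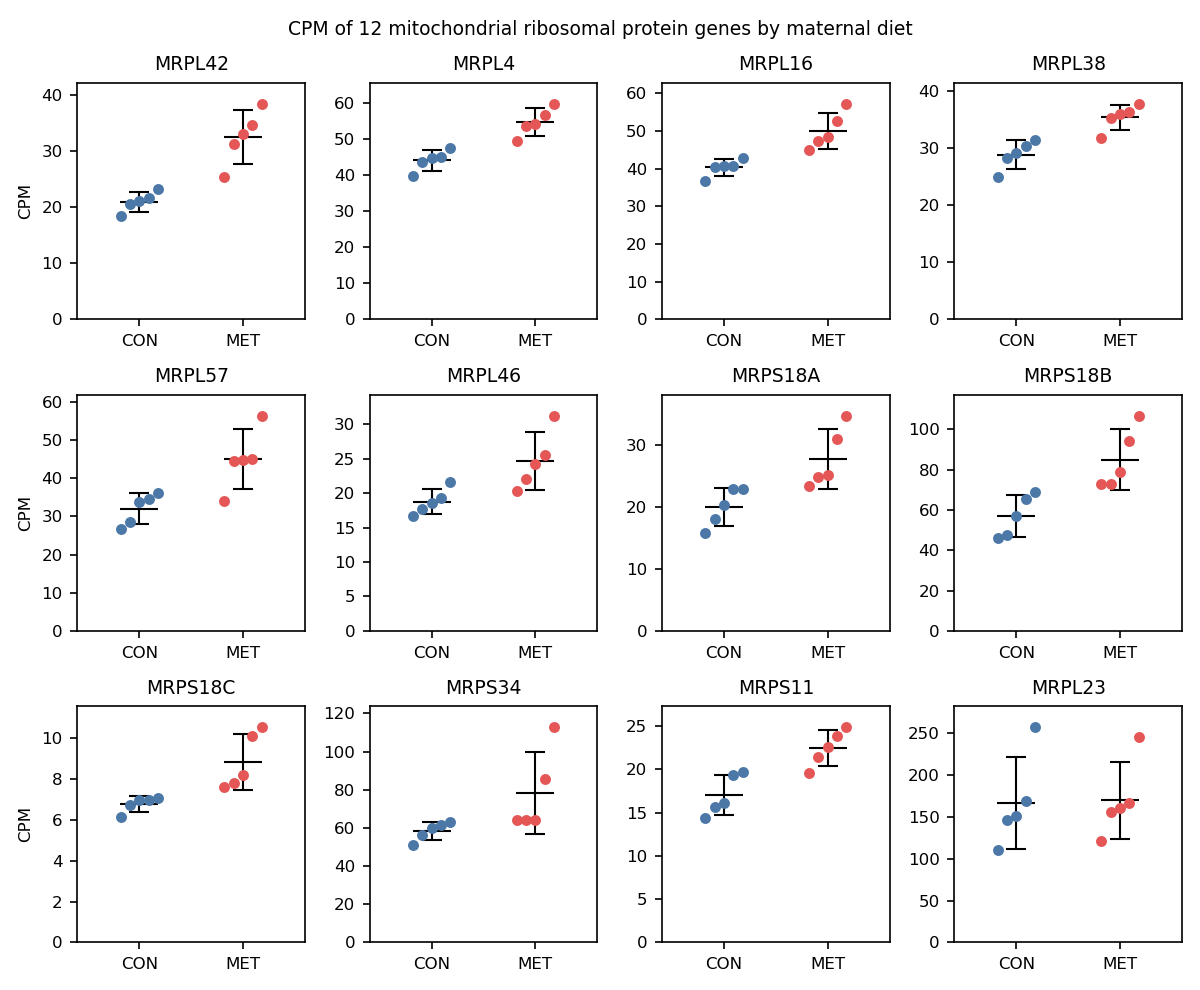
CPM (y axis, from 0) of 12 mitochondrial ribosomal protein genes in the 5 CON and 5 MET samples, with a bar for the mean ± SD (n = 5). The diets do not overlap in MRPL42, MRPL4, MRPL16, MRPL38, MRPS18A, MRPS18B, MRPS18C and MRPS34, while in MRPL23 the MET range of 121 to 246 CPM lies inside the CON range of 110 to 257 CPM.

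Other members lay at or near 0. MRPL3, which encodes uL3m, a conserved protein of the large subunit, had 49.9, 48.5, 40.5, 41.4 and 47.3 CPM in CON and 43.1, 40.7, 42.4, 39.3 and 52.8 CPM in MET. MET replicate 6 was the highest of all samples, MET replicate 5 the lowest, and the other 3 MET samples lay in the lower part of the CON range, with a log2 fold change of -0.06 (SE 0.11, edgeR adjusted p = 0.829). MRPL33, which encodes bL33m, was the weakest member at 0.879 to 1.48 CPM in CON and 0.920 to 1.54 CPM in MET. Its lowest sample held 7 reads, and its log2 fold change was -0.02 (SE 0.25).

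The member whose symbol goes furthest from its present name is MRPS36. Its protein, also known as KGD4, is a part of the 2-oxoglutarate dehydrogenase complex of the citric acid cycle. It had 10.1, 12.3, 12.3, 14.2 and 13.7 CPM in CON and 12.1, 19.7, 12.1, 8.38 and 11.5 CPM in MET, a log2 fold change of 0.03 (SE 0.20, edgeR adjusted p = 0.953). MET replicates 2 and 5 were the highest and the lowest of all samples. MRPS30, whose protein (mL65) sits in the large subunit, had 12.2, 16.1, 16.1, 19.5 and 19.1 CPM in CON and 17.6, 21.9, 16.2, 15.4 and 18.9 CPM in MET, a log2 fold change of 0.13 (SE 0.15, edgeR adjusted p = 0.711). That of MRPS30 was 0.029 without the pair of CON replicates 1 and 4, 0.047 without MET replicate 2 and 0.030 with the length trend removed.

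With genes placed by their protein, that is with MRPS18A and MRPS30 in the large subunit and MRPS36 left out, the medians were 0.28 over 51 large subunit genes and 0.29 over 26 small subunit genes. Of these, 5 and 2 were called over the 12 libraries, and 5 and 3 had samples that did not overlap, against 2.09% of all genes called higher and 1.91% with all MET above all CON. The proteins of the mitochondrial ribosome are partly inherited from bacteria and partly added later. For this split the genes were again taken by symbol, which put MRPS18A, MRPS30 and MRPS36 among the small subunit genes without a counterpart. Genes with a bacterial counterpart had a median log2 fold change of 0.29 in the large subunit (30 genes) and 0.29 in the small subunit (16 genes). Genes without one had 0.25 (19 genes) and 0.26 (13 genes). With the length trend removed the medians were 0.15 and 0.12 for those with a counterpart and 0.14 and 0.15 for those without, so that the order turned in the small subunit.

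By place in the large subunit, the genes listed for the central protuberance were MRPL18, MRPL27, MRPL38, MRPL40, MRPL46, MRPL48 and MRPL55. These 7 had a median log2 fold change of 0.39, with 6 of 7 at an unadjusted p of at most 0.05 and 1 of 7 called over the 12 libraries. The 7 genes around the polypeptide exit, MRPL23 and MRPL24 among them, had a median of 0.14, with 1 of 7 at that p. The 5 genes of the stalk where translation factors bind, such as MRPL12, had a median of 0.19, with 1 of 5. With the trend of each sample on gene length removed, the medians of these lists were 0.20, 0.004 and 0.14, with 1 of 7, 0 of 7 and 1 of 5 at an unadjusted p of at most 0.05. Over all genes tested, 7.83% were higher at that p as counted and 6.62% with the trend removed, and 2.09% were called higher over the 12 libraries. The lists were written after the values were seen and need not hold every gene of a place. Their medians and counts depend on which genes were listed, and the difference between the lists was not tested.

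Levels were compared between genes per kilobase of exons (RPKM, the CPM divided by the exonic length in kilobases). Although each protein is present once in a ribosome, with few exceptions, the RNA levels spread widely. The large subunit genes ran from 2.64 RPKM in MRPL33 to 297 RPKM in MRPL23, with a median of 24.7, and 38 of 49 lay within 2-fold of it. The small subunit genes ran from 9.58 RPKM in MRPS9 to 73.4 RPKM in MRPS33, with a median of 22.4, and 23 of 29 lay within 2-fold. The subunits thus had similar levels at their median, and their extremes came from a few genes.

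MRPL23, which encodes uL23m at the mouth of the tunnel, lay far above the next gene. It had 170, 257, 152, 147 and 110 CPM in CON and 156, 166, 161, 121 and 246 CPM in MET, with a log2 fold change of 0.03 (SE 0.23, edgeR adjusted p = 0.969). CON replicate 2 and MET replicate 6 were its highest samples, so that the diets overlapped over nearly their whole range. Without MRPL23, the large subunit summed to 1452 ± 119 CPM for CON and 1758 ± 207 CPM for MET (SD, n = 5 each). The next highest of the large subunit, MRPL24 (uL24m), had a mean of 49.5 ± 4.02 CPM in CON and 63.2 ± 10.5 CPM in MET (SD, n = 5), with a log2 fold change of 0.35 (SE 0.13, edgeR adjusted p = 0.224).

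MRPS33, the highest of the small subunit per kilobase, had 62.4, 73.3, 58.7, 68.4 and 67.3 CPM in CON and 77.9, 86.8, 73.5, 59.9 and 82.0 CPM in MET. All MET samples but replicate 5 lay above the CON range, replicate 4 only just. The log2 fold change was 0.20 (SE 0.12, edgeR adjusted p = 0.422), and 0.055 with the length trend removed. At the low end of the small subunit, MRPS9 (uS9m) had a mean of 27.0 ± 4.75 CPM in CON and 36.0 ± 5.90 CPM in MET, and MRPS35 of 32.7 ± 5.86 and 34.3 ± 5.80 CPM (SD, n = 5). Their exons were long, at 3290 and 3046 bases, so that few reads per kilobase did not mean few reads. The log2 fold changes were 0.41 (SE 0.15, edgeR adjusted p = 0.228) and 0.07 (SE 0.15, edgeR adjusted p = 0.856). MRPL1, which encodes the protein of the mobile L1 stalk, was the second lowest of the large subunit per kilobase, with a mean of 16.5 ± 2.56 CPM in CON and 20.04 ± 4.61 CPM in MET (SD, n = 5), a log2 fold change of 0.28 (SE 0.17, edgeR adjusted p = 0.427).

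**Figure D4:**
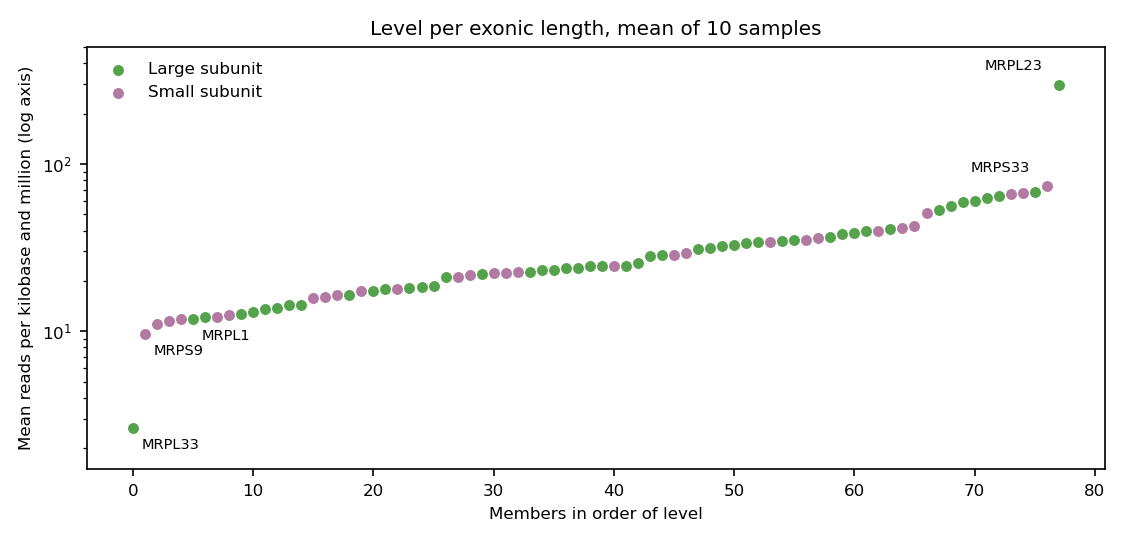
Mean level of the 78 members per kilobase of exons over the 10 samples (y axis, RPKM, log axis), ordered from lowest to highest (x axis) and coloured by subunit. Both subunits are mixed over most of the range, with MRPL33 at 2.64 and MRPL23 at 297 standing apart at the ends.

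Calves of a diet differed little in most members. The SD of log2 CPM within diets had a median of 0.22 over the large subunit and 0.24 over the small subunit, against 0.24 over the 8977 genes of 5 to 100 CPM. The largest spreads were those of MRPL15 (0.46) and MRPS31 (0.47). MRPL15, which encodes uL15m, had 11.7, 20.6, 21.4, 33.8 and 31.3 CPM in CON and 22.8, 35.8, 22.5, 19.6 and 25.4 CPM in MET. MRPS31, which encodes mS31, had 19.1, 19.2, 21.6, 38.2 and 31.2 CPM in CON and 29.1, 47.5, 33.1, 18.4 and 26.2 CPM in MET. In both genes CON replicates 5 and 6 were the highest of CON, MET replicate 2 was the highest of MET and MET replicate 5 the lowest. The log2 fold changes were 0.09 (SE 0.26, edgeR adjusted p = 0.893) and 0.26 (SE 0.26, edgeR adjusted p = 0.657). That of MRPS31 ranged from 0.049 without MET replicate 2 to 0.44 without CON replicate 5.

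Mitochondrial ribosomal protein genes are short, and in these libraries short genes were higher in MET as a class. The median exonic length was 1008 bases in the large subunit (448 to 2903) and 1065 bases in the small subunit (428 to 3449), against 2806.5 bases over all genes tested. Across the 13242 genes, which are not independent replicates, the log2 fold change had a Pearson correlation of -0.26 with log2 length. All other genes of 600 to 900 bases had a median log2 fold change of 0.20 and the 24 members of that length 0.33. From 900 to 1200 bases the medians were 0.15 and 0.30 (20 members), from 1200 to 1800 bases 0.09 and 0.25 (19 members), and from 1800 to 3500 bases 0.006 and 0.21 (11 members). The order was the opposite up to 600 bases, at 0.22 for other genes and 0.03 for the 4 members MRPL23, MRPL33, MRPS18C and MRPS36.

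After the trend of each sample on length had been removed, the median log2 fold change was 0.14 in the large and 0.14 in the small subunit and 0.004 over all genes. Of 49 and 29 genes, 41 and 26 then had a log2 fold change above 0, against 50.7% of all genes. At an unadjusted p of at most 0.05, 9 of 49 and 6 of 29 were higher and none was lower, against 6.62% of all genes higher and 7.46% lower. The median of both subunits was thus lower once length was taken into account. Over the 78 members, the correlation of log2 fold change with log2 length went from -0.18 to 0.23, and the median of the 4 shortest was then -0.20. The values of MRPL42 and MRPS18B went from 0.63 to 0.56 and from 0.57 to 0.43. For comparison, the median of the 84 cytosolic ribosomal protein genes tested, whose median exonic length was 672 bases, went from 0.21 to 0.03.

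**Figure D5:**
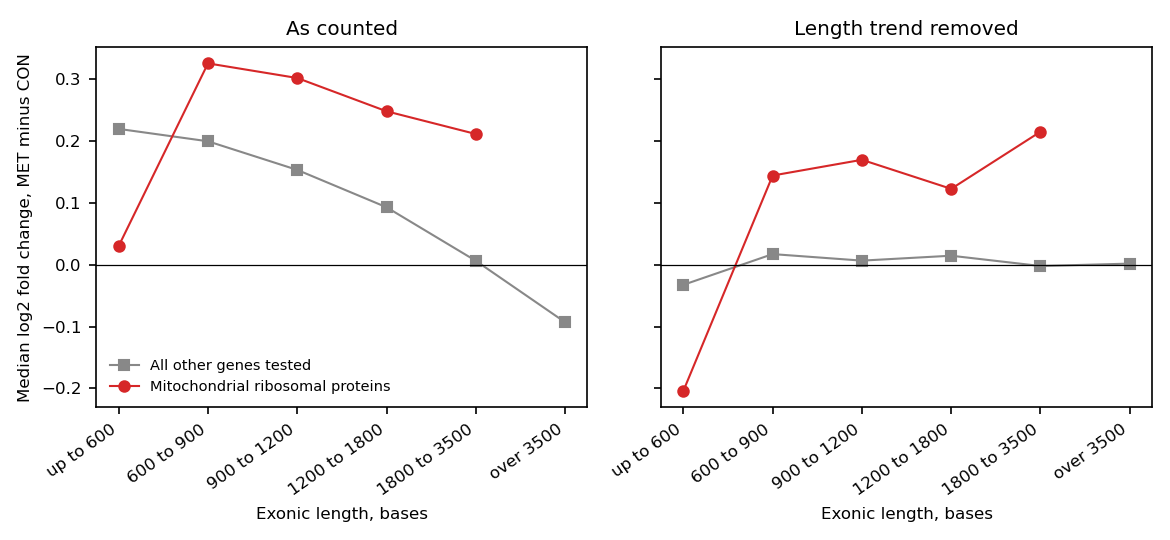
Median log2 fold change (MET minus CON, y axis) by exonic length (x axis, bases) for the mitochondrial ribosomal protein genes (red circles, 4, 24, 20, 19 and 11 genes from left to right) and for all other genes tested (grey squares), as counted (left) and after the trend of each sample on length was removed (right). In the left panel the grey line falls from 0.22 to -0.09 and the red points lie above it beyond 600 bases. In the right panel the grey line stays near 0, the red points beyond 600 bases lie between 0.123 and 0.215, and the red point up to 600 bases lies at -0.204.

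The rRNA that these proteins assemble around is transcribed from mitochondrial DNA. Since the libraries were made from poly(A) RNA, its reads do not give the amount of rRNA. The 12S gene (s-rRNA) had 304, 223, 252, 136 and 249 CPM in CON and 413, 282, 370, 194 and 281 CPM in MET, and the 16S gene (l-rRNA) 365, 404, 370, 181 and 329 CPM in CON and 514, 435, 321, 324 and 505 CPM in MET. The diets overlapped in both, with log2 fold changes of 0.40 (SE 0.24, edgeR adjusted p = 0.415) and 0.35 (SE 0.22, edgeR adjusted p = 0.458). Without CON replicate 5 they were 0.26 and 0.19, and with the length trend removed 0.25 and 0.27. CON replicate 5 was the lowest sample in both genes, although it had the highest summed small subunit of CON.

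Other genes of mitochondrial translation were followed by a list of 57, of which 55 were tested. TACO1, an activator of translation, was below the filter, and NOA1 was not analysed here. By edgeR, none of the 55 was called over the 10 samples, 7 were called higher and 0 lower over the 12 libraries, and 13 were higher and 2 lower at an unadjusted p of at most 0.05. Over all genes tested, 2.09% were called higher and 2.32% lower over the 12 libraries, and 7.83% were higher and 8.52% lower at that p. DESeq2 over the 10 samples called 6 of the 55 higher and 0 lower, with 2.31% of all genes called higher. The median log2 fold change was 0.17, with 39 of 55 above 0.

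The 5 proteins of the mitochondrial ribosome that carry other symbols were all above 0, at a median of 0.32. They were DAP3 (0.24), PTCD3 (0.31), AURKAIP1 (0.32), CHCHD1 (0.50) and GADD45GIP1 (0.53) by log2 fold change. CHCHD1 (mS37), whose diets overlapped over the 10 samples, rose over the 12 libraries, with means of 20.4 ± 3.20 CPM in CON and 28.7 ± 3.97 CPM in MET (SD, n = 5) and an edgeR adjusted p of 0.175 over the 10 samples and 0.0692 over the 12 libraries. With the length trend removed, CHCHD1 was at 0.28, AURKAIP1 at 0.16 and GADD45GIP1 at 0.32. Without MET replicate 6, AURKAIP1 was at 0.18 and GADD45GIP1 at 0.27, and without MET replicate 4 DAP3 was at 0.15.

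Assembly factors and enzymes that modify the rRNA were the largest group, with 23 tested, 20 above 0, 8 higher at an unadjusted p of at most 0.05 and 5 called over the 12 libraries. Over all genes tested, 7.83% were higher at that p and 2.09% called higher. The 5 called were MPV17L2, MRM1, YBEY, RPUSD4 and NGRN. MRM1, a methyltransferase that acts on the ribose of 16S rRNA, had 5.87, 6.91, 4.91, 7.495 and 3.94 CPM in CON and 10.8, 8.68, 7.59, 8.61 and 12.7 CPM in MET, without overlap and with a log2 fold change of 0.73 (SE 0.20; edgeR adjusted p = 0.175 and, over the 12 libraries, 0.0656). YBEY, an endoribonuclease needed for the small subunit, had 9.68, 12.6, 11.8, 12.9 and 11.1 CPM in CON and 18.02, 14.8, 18.6, 15.2 and 13.6 CPM in MET, a log2 fold change of 0.47 (SE 0.13; edgeR adjusted p = 0.175 and, over the 12 libraries, 0.0614). NGRN, which takes part in the handling of 16S rRNA, went from a mean of 45.9 ± 3.09 CPM to 58.9 ± 6.15 CPM (SD, n = 5), also without overlap. MPV17L2, a membrane protein bound to the large subunit, had the largest log2 fold change of the list at 0.82 (edgeR adjusted p = 0.174 and, over the 12 libraries, 0.0692).

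Among the 11 factors of initiation, elongation and termination, 1 was called higher over the 12 libraries, against 2.09% of all genes tested. This was TSFM, which exchanges the nucleotide of the elongation factor TUFM and had means of 17.7 ± 2.10 CPM in CON and 24.9 ± 4.67 CPM in MET (SD, n = 5), with a log2 fold change of 0.49 (edgeR adjusted p = 0.180 and, over the 12 libraries, 0.0781). TUFM itself had 116 ± 10.9 and 145 ± 32.1 CPM (SD, n = 5; log2 fold change 0.32, edgeR adjusted p = 0.346). GFM1, the other elongation gene, was at -0.04 (SE 0.17, edgeR adjusted p = 0.941), and MTIF3 of initiation at -0.06 (SE 0.15, edgeR adjusted p = 0.870). The median was 0.17 over 3 initiation genes, 0.32 over 3 elongation genes and 0.24 over 5 genes of termination, rescue and recycling. With the length trend removed these medians were 0.16, 0.25 and 0.16. MRPL58, a member that works as a peptidyl-tRNA hydrolase in ribosome rescue, had a log2 fold change of 0.25 (SE 0.15, edgeR adjusted p = 0.445), which was 0.14 without MET replicate 6 and 0.080 with the length trend removed.

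The 3 tested genes of translation activators and membrane insertion had a median log2 fold change of -0.01 (-0.08 with the length trend removed). LRPPRC was at -0.01, OXA1L at -0.03 and SLIRP at 0.21 (-0.09 with the length trend removed). Genes upstream of mitochondrial translation also had medians at or below 0. The 5 genes of mitochondrial transcription had a median log2 fold change of -0.01 (-0.06 with the length trend removed), with TFAM, which packages mitochondrial DNA and starts its transcription, at 5.14 ± 1.59 CPM in CON and 3.32 ± 0.994 CPM in MET (SD, n = 5; log2 fold change -0.62, edgeR adjusted p = 0.282). Of 8 regulators of mitochondrial biogenesis, 6 were below 0, at a median of -0.27. YY1 was at 40.4 ± 5.01 CPM in CON and 31.9 ± 4.29 CPM in MET (SD, n = 5; log2 fold change -0.34, edgeR adjusted p = 0.230), PPARGC1A at 27.3 ± 7.66 and 21.5 ± 5.29 CPM, and NRF1, a transcription factor of many nuclear genes for mitochondrial proteins, at 11.97 ± 1.16 and 11.8 ± 1.37 CPM. These regulators have long exons (median 7354.5 bases), and with the length trend removed their median was -0.10.

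The 78 genes were spread over 27 chromosomes, with 9 on chromosome 11 and 8 on chromosome 19. None shared exonic bases with another gene on the same strand, and the exons of 5 (MRPL27, MRPL49, MRPL55, MRPL57 and MRPS7) were overlapped by a gene on the opposite strand, which stranded counting keeps apart. For 24 of 78, or 30.8%, the nearest start of a gene read in the opposite direction lay within 1000 bases upstream, and this held for 15.1% of all genes tested. Several of these partners also serve mitochondria. MRPL43 starts 75 bases from TWNK, the helicase of mitochondrial DNA, MRPS12 185 bases from SARS2, the mitochondrial seryl-tRNA synthetase, and MRPL47 132 bases from NDUFB5, a subunit of complex I. Of the 20 such partners tested that were not members, 16 had a log2 fold change above 0, at a median of 0.13. FAU, which encodes a protein of the cytosolic ribosome and starts 104 bases from MRPL49, had a log2 fold change of 0.42 (SE 0.14, edgeR adjusted p = 0.196) and of 0.12 with the length trend removed, while MRPL49 was at 0.05 and -0.004. SKA3, a gene of the mitotic spindle that starts 76 bases from MRPL57, was at -0.49 (SE 0.31, edgeR adjusted p = 0.453), opposite in sign to MRPL57.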

How the data were processed

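The authors trimmed the reads with Trimmomatic, aligned them to UMD 3.1.1 with STAR 2.5.3a and assigned them to exons with featureCounts of Subread 1.5.2, and deposited raw counts per Entrez gene ID for each calf. Counting was stranded and left out reads with several matches or genes. RNA was extracted with Trizol per the labels and the study's supplement on quantitative PCR, and with a column kit per its main methods. Symbols came from a RefSeq table (assembly ARS-UCD2.0), which named 25105 of 30336 IDs, and coordinates from the count files. The replicate label of each library gave its diet.

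Counts were fitted with edgeR 4.0.16 (R 4.3.3) by its quasi-likelihood test on diet, after TMM normalization and the default filter (minimum count 10, minimum total 15), with Benjamini-Hochberg adjustment over all genes tested and a threshold of 0.10. The samples were the 10 left after pairs were summed, and the fit of the study's methods, over 12 libraries, was the first alternative. The samples are calves by label, and p-values measure only the spread between these samples. CPM are TMM-normalized, and the floor of 3 reads covers counting error alone, as reads carried no molecular identifiers. SDs of log2 CPM used CPM + 0.5. The length trend had a span of 0.5. DESeq2 1.42.0 was an alternative, and the steps were tested on simulated data. Figures were drawn with Python 3.11.15.

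The members and lists were chosen with earlier results of these data known. Members given in full were those with an FDR of at most 0.10 over the 12 libraries, those whose diets did not overlap, the 3 lowest p higher and 2 lowest p lower in MET, the 2 highest and 2 lowest per kilobase and the largest spread of each subunit, the MRPS18 paralogs, MRPS30 and MRPS36. Any other gene was picked once its value was known. Promoter and protein sequences were not used here.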

Additional observations from a re-analysis of the deposited data

Results flagged for a closer look

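Each of the named genes and the summed levels of the subunits was checked, within each diet, for a sample that stood apart from the other 4. Of 54 groups of 5 samples, 1 was flagged, and chance flags about 1 in 20 groups. MRPL3 had 52.8 CPM in MET replicate 6 and 39.3 to 43.1 CPM in the other MET samples, so that the gap to the nearest sample was 0.72 of the range of the group (critical value 0.710). The same sample had the highest CPM of 39 of the 78 genes.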

How the results depend on the processing

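Over all genes, the count of calls was 0 over the 10 samples, 583 over the 12 libraries, 6 there with a replicate block, 639 with DESeq2 and 1314 with DESeq2 over the 12 libraries (chosen after seeing the data). Large subunit calls were 4 over the 12 libraries, 4 with DESeq2 and 13 with DESeq2 over the 12 libraries, and small subunit calls 3, 3 and 7. With the replicate block no member was called. Replicate numbers did not pair the libraries: correlations of same-numbered libraries ran from -0.196 to 0.160, and 0 CON libraries correlated best with their own number. Leaving out 1 sample of the 10 gave 0 to 39 calls over all genes and 0 to 1 in the large subunit, the highest without the pair of MET replicates 1 and 3. Leaving out 1 of the 12 libraries gave 26 to 565 over all genes (26 without CON replicate 1, 35 without CON replicate 4), 0 to 6 in the large subunit and 0 to 3 in the small subunit, with no member called without CON replicate 1 or CON replicate 4. Non-overlapping genes were 2 and 1 (large and small) with library size only, 3 and 2 with the length trend removed (MRPL38, MRPS18A, MRPS18C and MRPS34 then overlapped, and MRPS26 did not), and 4 to 8 (8 without MET replicate 5) and 4 to 7 (7 without CON replicate 2) without 1 sample. The share over all genes (1.91% with all MET above all CON) is given for the main setting only. These counts thus have no share of their own beside them, and non-overlap is easier to reach with fewer samples. Genes at an unadjusted p of at most 0.05 were 9 and 6 with the length trend removed, and 13 to 23 and 7 to 16 without 1 sample, the lowest of both without MET replicate 6. Medians of both subunits stayed above 0 in every alternative run, from 0.14 to 0.32 in the large subunit and from 0.14 to 0.36 in the small subunit. Among the 78 members, the sign turned for 9 with the length trend removed, of which MRPL23 (-0.20) and MRPS36 (-0.21) were furthest below 0. It turned for MRPL22 and MRPL33 over the 12 libraries with and without the block, and the values of MRPL33 were above 0 over the 12 libraries (0.0028), with the block (0.029) and with 1 library of each pair kept (0.013). Leaving out 1 of the 10 samples in turn gave log2 fold changes of both signs for 12 of the 78 members. Of the genes chosen by rule, they were MRPL15 (-0.087 to 0.26), MRPL23 (-0.14 to 0.23), MRPL33 (-0.13 to 0.070), MRPS35 (-0.0074 to 0.15) and MRPS36 (-0.17 to 0.15). The cause was not tested. A correction for GC content was not run, since no genome sequence was used. Among the genes chosen by rule, removing the length trend also moved MRPL3 (-0.16), MRPL15 (0.050), MRPL33 (-0.27), MRPS30 (0.030), MRPL24 (0.17), MRPS11 (0.24), MRPS18C (0.14), MRPS31 (0.15), MRPS33 (0.055) and MRPS34 (0.26) by more than 1.5 times. Leaving out MET replicate 4 did so for MRPL1 (0.15). MRPL3 ran from -0.14 without MET replicate 6 to -0.024 without CON replicates 1 and 4. The shallowest member was MRPL33, at 7 reads in its lowest sample.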
